A study of Homo sapiens with 12 samples.

Results

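Complex I of the respiratory chain takes electrons from NADH and pumps protons across the inner mitochondrial membrane, and 7 of its membrane subunits are encoded by mitochondrial DNA. Their mRNAs, MT-ND1, MT-ND2, MT-ND3, MT-ND4, MT-ND4L, MT-ND5 and MT-ND6, were chosen by gene symbol and made up 7 of the 15798 genes in the table and 7 of the 13 mitochondrially encoded mRNAs. The cells were HCT116, an established human colorectal cancer line, which had received 100 nM trametinib, an inhibitor of the kinases MEK1/2, or the solvent DMSO for 24 h. No other agent distinguished the treatments, but all dishes shared a short exposure to cycloheximide before lysis. Each treatment had 3 biological replicates, and each replicate gave an input library of fragmented RNA from the cleared cytoplasmic lysate and a footprint library of fragments that survived RNase I and were recovered from the monosome fraction, so that there were 12 libraries. The comparison of the treatments asked how MEK1/2 inhibition changed the abundance of single mRNAs and their occupancy by ribosomes.

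The mitochondrial genome is transcribed from both strands into long precursors that are cut into mRNAs, most of them with a single reading frame and almost no untranslated sequence. The mRNAs are translated inside the organelle by mitochondrial ribosomes, which differ from cytosolic ribosomes and are not stalled by cycloheximide. MT-ND2, MT-ND4 and MT-ND5 are the large antiporter-like subunits of the proton-pumping arm, MT-ND1 lies next to the quinone site, and MT-ND3, MT-ND4L and MT-ND6 are small subunits close to the junction with the matrix arm. Nuclear genes supply the other subunits and the assembly factors, as well as all proteins that transcribe, process and translate the mitochondrial mRNAs. Whether the fragments counted on these frames were protected by mitochondrial ribosomes was not tested.

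The first 30 bases of the 7 reading frames are shown because these frames are the stretches on which reads were counted. They were read from GRCh38 on the strand of the gene, and capitals mark the annotated start codon.
MT-ND1: ATAcccatggccaacctcctactcctcatt
MT-ND2: ATTaatcccctggcccaacccgtcatctac
MT-ND3: ATAaacttcgccttaattttaataatcaac
MT-ND4: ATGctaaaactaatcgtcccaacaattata
MT-ND4L: ATGcccctcatttacataaatattatacta
MT-ND5: ATAaccatgcacactactataaccacccta
MT-ND6: ATGatgtatgctttgtttctgttgagtgtg
MT-ND1, MT-ND3 and MT-ND5 opened with ATA and MT-ND2 with ATT, codons that start translation in mitochondria, while MT-ND4, MT-ND4L and MT-ND6 opened with ATG. On GRCh38 the frames lie at chrM:3307-4262 for MT-ND1, chrM:4470-5511 for MT-ND2 and chrM:10059-10404 for MT-ND3. Further along the same strand lie MT-ND4L at chrM:10470-10766, MT-ND4 at chrM:10760-12137 and MT-ND5 at chrM:12337-14148, and MT-ND6 lies on the minus strand at chrM:14149-14673. In the annotation at hand each of these genes is a single exon whose transcript ends where the frame ends, and 4 of the 7 frames have a length that is no multiple of 3, since their stop codon is completed by the poly(A) tail.

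MT-ND4L and MT-ND4 share one mRNA and overlap by 7 bases, shown here in capitals at chrM:10760-10766 with their surroundings, chrM:10730-10796 on the plus strand.
MT-ND4L and MT-ND4 overlap: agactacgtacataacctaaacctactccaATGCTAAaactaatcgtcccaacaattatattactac
The capitals hold the ATG of MT-ND4 and run to the stop codon TAA of MT-ND4L. MT-ND5 and MT-ND6 meet end to end with 0 bases between their frames, and capitals in chrM:14119-14178, again on the plus strand, mark the last 3 bases of MT-ND5 followed by the last 3 of MT-ND6.
MT-ND5 and MT-ND6 ends: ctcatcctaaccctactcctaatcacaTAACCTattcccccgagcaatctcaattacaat
The MT-ND6 mRNA consisted of 35.6% G and 7.05% C, whereas the 6 members on the plus strand held 9.50% to 12.1% G and 29.5% to 36.0% C. Whether the counting used the strand of a read is not given in the sources used here, so reads of MT-ND6 and reads antisense to it cannot be told apart. Of all stretches of 30 bases in a frame, 58.0% in MT-ND2, 31.7% in MT-ND6, 28.7% in MT-ND1, 22.9% in MT-ND4, 17.9% in MT-ND4L, 16.2% in MT-ND5 and 3.79% in MT-ND3 also occurred in transcripts of other gene symbols, which for MT-ND2 were led by the pseudogene MTND2P28. Protein-coding transcripts of other symbols held 0.324% of the stretches of MT-ND1 and 0% of those of the other members. Only reads on annotated reading frames of one symbol had been counted. Whether reads shared with pseudogenes were left out is not given in the sources used here, so levels of the members may be understated to different degrees. A comparison of the treatments within one member concerns the same stretches.

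Library totals were between 2276693 and 2845568 counts for input and between 10127477 and 19181588 for footprints, and the 7 members had between 424 and 48383 counts each in every library. Of 7 epithelial markers, 6 passed the filter of at least 10 counts in at least 3 libraries and VIL1 had at most 2 counts, while PTPRC, CD3E, PECAM1 and COL1A2, markers of leukocytes, endothelium and fibroblasts, had at most 3 counts in any library. The remaining non-epithelial marker in the table, the collagen gene COL1A1, had 14 to 36 counts in input and 78 to 148 in footprints and did not pass the test between the treatments. As a check of the treatment, all 7 targets of ERK signalling examined fell in input and in footprints, with median log2 changes of -6.01 and -6.19. The members deviated most in 3 libraries. Their mean log2 difference from the other replicates of the group was -1.28 in DMSO footprint replicate 3, 1.09 in DMSO footprint replicate 2 and -0.65 in trametinib input replicate 2, where MT-ND6 was not low as the others were. Over the 7669 genes with a mean normalised count of at least 100, the SD of this difference was 0.33, 0.25 and 0.27 in these libraries. These SDs lay within the range of the 12 libraries, 0.14 to 0.46. The 13 mitochondrially encoded mRNAs together took 0.646% of DMSO footprint replicate 3, against 1.34% and 1.99% of the other two.

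Together the 7 members took 1.29% ± 0.199 (SD, n = 3) of the DMSO input counts and 0.991% ± 0.225 of the trametinib input counts. In footprints they took 0.332%, 0.501% and 0.167% of the 3 DMSO libraries and 0.524%, 0.483% and 0.482% of the 3 trametinib libraries. The members were thus a smaller share of the footprints than of the input in every dish, and the 3 trametinib footprint libraries lay close together, 1 of them above the highest DMSO library and the others above the middle one. A dish means here the input and the footprint library of one treatment and replicate number, which came from one lysate.

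Per length, MT-ND4 had the highest counts of the members in DMSO input, with 3569 ± 422 (SD, n = 3) CPM per kilobase of reading frame. MT-ND6 followed with 2646 ± 482. MT-ND4L, which shares its mRNA with MT-ND4, had 1562 ± 188, so counts per length do not rank the mRNAs by abundance. CPM are counts scaled for the depth of the library, with TMM factors over the 12 libraries. MT-ND2, MT-ND3, MT-ND4L and MT-ND5 lay between 1516 and 1768 CPM per kilobase and did not differ beyond their spread, and MT-ND1 was lowest with 942 ± 228. In trametinib input MT-ND6 was first with 2788 ± 237 CPM per kilobase and MT-ND4 second with 2687 ± 665, a difference within their spread. The order in footprints was another one. MT-ND3 and MT-ND5 led, with 962 ± 462 and 907 ± 465 CPM per kilobase in DMSO and 1233 ± 81.3 and 1249 ± 70.6 in trametinib, and MT-ND4L was last with 215 ± 126 and 293 ± 28.7.

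**Figure D1:**
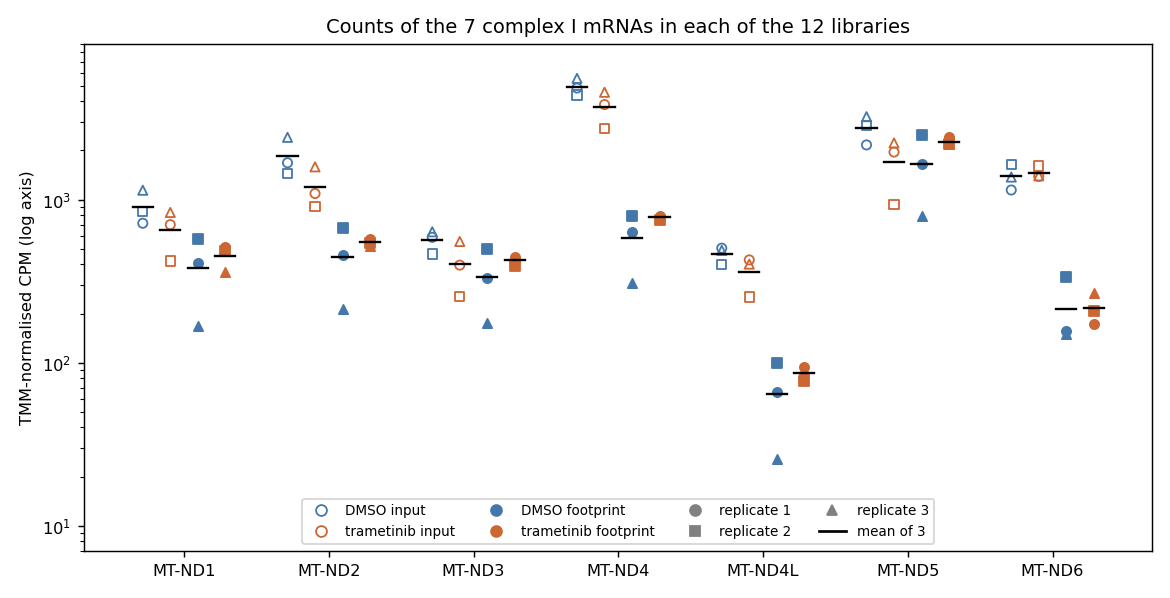
TMM-normalised CPM (log axis) of the 7 complex I mRNAs in all 12 libraries, with open symbols for input, filled symbols for footprints, blue for DMSO, orange for trametinib, a symbol shape per replicate number and a black bar at the mean of 3. For every member the DMSO and trametinib symbols overlap in both assays, and DMSO footprint replicate 3 (filled blue triangle) is the lowest DMSO footprint library throughout.

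In input, none of the 7 members passed the test between the treatments, while 32.1% of the 10663 genes tested did (edgeR quasi-likelihood test, adjusted p below 0.05), and at an unadjusted p below 0.05 the members counted 2, MT-ND2 and MT-ND5, beside 42.9% of all genes tested. The estimates of 6 members were below 0, between -0.63 and -0.31 on the log2 scale, and that of MT-ND6 was 0.14. The median over the 7 was -0.41, against 0.00 over all genes tested and -0.24 over the 6 other mitochondrially encoded mRNAs, of which 0 passed. The 3 DMSO and the 3 trametinib values overlapped in 7 of the 7, whereas they did not overlap in 46.1% of the genes with at least 10 counts in every library. Among the 6 other mitochondrially encoded mRNAs, MT-CO3, MT-ATP6 and MT-ATP8 did not overlap and were lower with trametinib. These values are relative to the other genes of a library, so they do not give the amount of RNA per cell.

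MT-ND5 stood at 2164, 2851 and 3224 CPM in the DMSO input libraries and at 1956, 935 and 2225 CPM with trametinib. The highest trametinib library lay just above the lowest DMSO library, so that the groups overlapped. Its log2 change was -0.63 ± 0.26 (SE) with an adjusted p of 0.0791 in edgeR. MT-ND2 had 1681, 1439 and 2408 CPM in DMSO and 1089.5, 909 and 1587 CPM with trametinib. Again trametinib replicate 2 was lowest and the ranges overlapped, and its log2 change was -0.57 ± 0.22 (SE; adjusted p = 0.0706, edgeR). MT-ND4, the member with the highest input counts, had 4833, 4383 and 5537 CPM in DMSO and 3826, 2731 and 4552 CPM with trametinib, a log2 change of -0.35 ± 0.18 (SE; adjusted p = 0.152, edgeR).

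For the smaller plus-strand frames the picture was alike. MT-ND1 had 716, 846 and 1141 CPM in DMSO input and 701, 420.0 and 834 CPM in trametinib input. MT-ND3 had 587, 463 and 635 CPM against 396, 254 and 553 CPM. MT-ND4L had 503, 400.2 and 488 CPM against 426, 252 and 402 CPM. In each of them trametinib replicate 2 was the lowest of the 6 libraries, and without it the log2 changes of the 6 plus-strand members lay between -0.40 and -0.10, none of them past the threshold.

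MT-ND6 differed in that its 3 trametinib input libraries, at 1385.5, 1607 and 1398 CPM, lay inside the range of the DMSO libraries, at 1144, 1649.5 and 1374 CPM. In trametinib replicate 2, where the 6 plus-strand members were lowest, MT-ND6 had its highest trametinib value. The log2 change was 0.14 ± 0.15 (SE) with a 95% interval from -0.19 to 0.47.

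The input result depended on single libraries and on whether replicates were blocked by number. Leaving out DMSO input replicate 1 brought 3 members past the threshold (MT-ND1, MT-ND2 and MT-ND5), leaving out trametinib input replicate 3 also 3 (MT-ND2, MT-ND3 and MT-ND5), and leaving out DMSO input replicate 2 brought 1 (MT-ND2), all of them lower with trametinib. Leaving out any of the remaining 3 input libraries kept the count at 0. With all libraries kept, a replicate block by number brought 5 members past the threshold, all lower with trametinib. They were MT-ND1, MT-ND2, MT-ND3, MT-ND4 and MT-ND5, with adjusted p from 0.00119 to 0.0314 in edgeR. Whether same-numbered libraries are true pairs was not settled.

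**Figure D2:**
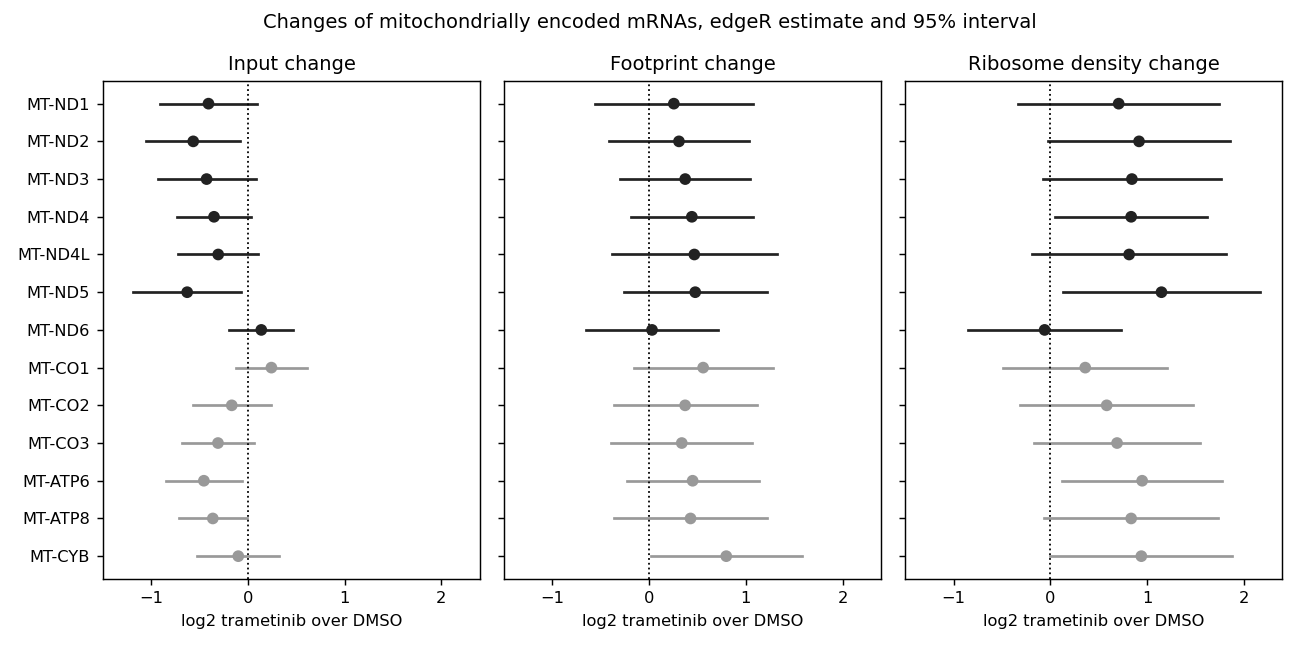
Log2 change of trametinib over DMSO in input, in footprints and in ribosome density for the 7 complex I mRNAs (black) and the 6 other mitochondrially encoded mRNAs (grey), as edgeR estimates (points) with 95% intervals (lines). The estimates of the 6 plus-strand complex I members lie below 0 in input and above 0 in footprints, with MT-ND6 near 0 in all panels, and none passed the threshold after adjustment.

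In footprints all 7 estimates were above 0 and none passed the test, against 48.6% of 11941 genes tested, and 0 of the 7 had an unadjusted p below 0.05, beside 55.7% of all genes tested. The log2 changes were 0.26 for MT-ND1, 0.31 for MT-ND2, 0.37 for MT-ND3, 0.44 for MT-ND4, 0.47 for MT-ND4L, 0.48 for MT-ND5 and 0.03 for MT-ND6, with SEs from 0.28 to 0.38 and adjusted p-values between 0.219 and 0.944 in edgeR. Their median was 0.37, against 0.00 over all genes tested and 0.44 over the 6 other mitochondrially encoded mRNAs, none of which passed.

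The treatments overlapped in all 7 members, while they did not overlap in 59.1% of the genes with at least 10 counts in every library. Of the other mitochondrially encoded mRNAs only MT-CYB did not overlap, and it was higher with trametinib. The spread was wide among the DMSO libraries. MT-ND5, the member with the most footprints, had 1652, 2482 and 796 CPM in DMSO and 2411, 2183 and 2196 CPM with trametinib. All 3 trametinib values fell between the middle and the highest DMSO value. MT-ND4 had 633, 794 and 308 CPM in DMSO and 795, 746 and 792 CPM with trametinib, so that one trametinib library exceeded the highest DMSO library only marginally. MT-ND2 had 458, 667 and 215 CPM in DMSO and 575, 542 and 522 CPM with trametinib.

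The same order of libraries recurred in the other plus-strand members. MT-ND1 had 411, 569 and 167 CPM in DMSO footprints and 514, 481 and 358 CPM in trametinib footprints. MT-ND3 had 328, 495 and 176 CPM against 443, 394 and 442 CPM, and MT-ND4L had 66.2, 100.1 and 25.5 CPM against 93.3, 77.2 and 90.1 CPM. In all of these DMSO replicate 2 was the highest and DMSO replicate 3 the lowest DMSO library, and the trametinib libraries overlapped with the DMSO range. MT-ND6 had 156, 337 and 149 CPM in DMSO and 174, 208 and 267 CPM with trametinib.

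Which DMSO footprint library was kept decided the estimates. Without DMSO footprint replicate 3 the log2 footprint changes were between -0.17 and 0.15, with MT-ND1, MT-ND2 and MT-ND6 below 0 and adjusted p-values of at least 0.444. Without DMSO footprint replicate 2 they were between 0.51 and 0.94, and 2 members, MT-ND3 (0.77, adjusted p = 0.0385) and MT-ND5 (0.90, adjusted p = 0.0374, both edgeR), passed the threshold.

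Ribosome density is the ratio of footprints to input. Its change with trametinib was tested as the interaction of assay and treatment over all 12 libraries. None of the 7 members passed, against 0.800% of 12000 genes tested, and 2 members, MT-ND4 and MT-ND5, had an unadjusted p below 0.05 where 7.75% of all genes tested had one. The estimates of 6 members lay high among all genes, with log2 changes of 1.15 ± 0.48 (SE) for MT-ND5, 0.92 ± 0.44 for MT-ND2 and 0.84 ± 0.43 for MT-ND3. MT-ND4 and MT-ND4L followed with 0.84 ± 0.37 and 0.82 ± 0.47, and MT-ND1 with 0.71 ± 0.49. These values were at percentiles 95.6 to 98.5 of all genes tested, while MT-ND6, at -0.06 ± 0.37, was at percentile 38.6. The adjusted p-values of the 7 were between 0.544 and 0.995 in edgeR, and the SEs of the members were above the median SE over all genes, 0.28. The median over the members was 0.84, over all genes tested 0.03, and over the 6 other mitochondrially encoded mRNAs 0.76, of which 0 passed.

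With each dish as a block, which pairs the input and the footprint library of one lysate, 160 genes passed (1.33%) in place of 96, and still none of the members. The block estimates were 1.35 for MT-ND5 (adjusted p = 0.0923), between 0.86 and 1.05 for the other 5 plus-strand members and 0.01 for MT-ND6. Without DMSO footprint replicate 3, the density changes of the 6 plus-strand members ranged from 0.36 to 0.83, and for all of them but MT-ND5 the estimate shrank by over 1.5 times. They ranged from 1.11 to 1.57 without DMSO footprint replicate 2, and 0 members passed the threshold without either library.

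**Figure D3:**
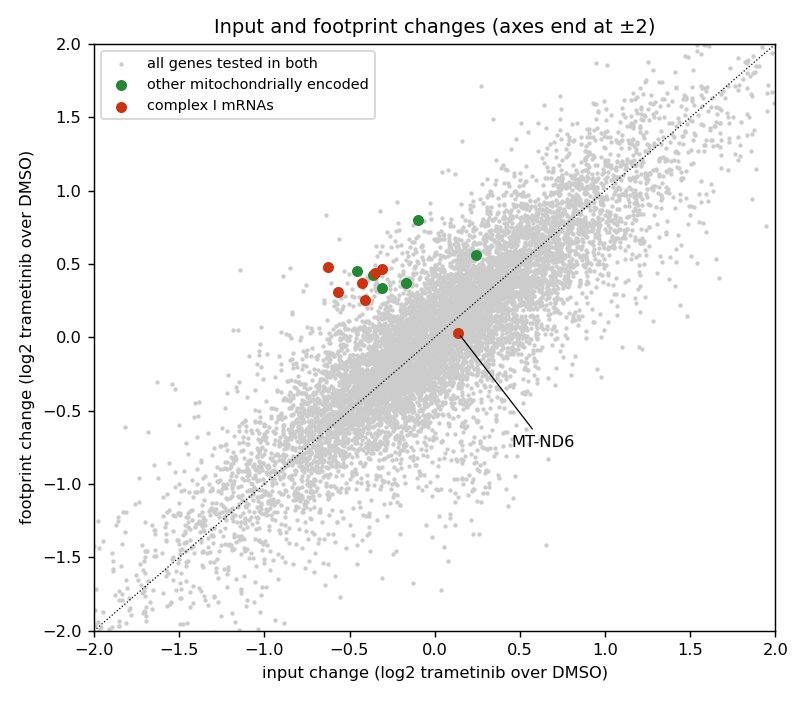
Log2 change in input (horizontal axis) and in footprints (vertical axis) of all genes tested in both (grey), the 6 other mitochondrially encoded mRNAs (green) and the 7 complex I mRNAs (red), with equal change along the dotted line and both axes ending at ±2. The 6 plus-strand complex I mRNAs lie above the line, with density changes from 0.71 to 1.15, and MT-ND6 lies just below it.

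Read dish by dish, the density of MT-ND5, as footprint CPM over input CPM, was 0.764, 0.871 and 0.247 with DMSO and 1.23, 2.34 and 0.987 with trametinib. It was the only one of the 7 members whose dishes did not overlap between the treatments, and among the genes with at least 10 counts in every library 17.9% did not overlap (10.1% with trametinib higher). The dishes of MT-ATP6 and MT-ATP8, 2 of the 6 other mitochondrially encoded mRNAs, did not overlap either. MT-ND4 had densities of 0.131, 0.181 and 0.0557 with DMSO and 0.208, 0.273 and 0.174 with trametinib, an overlap of the lowest trametinib dish with the highest DMSO dish. MT-ND6 had 0.137, 0.204 and 0.108 with DMSO and 0.125, 0.130 and 0.191 with trametinib, so that its trametinib dishes lay within the DMSO range.

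DMSO dish 3 was the lowest of the 6 dishes for all 7 members. In trametinib dish 2, whose input was low, the 6 plus-strand members had their highest density, while in MT-ND6 the highest trametinib dish was dish 3.

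**Figure D4:**
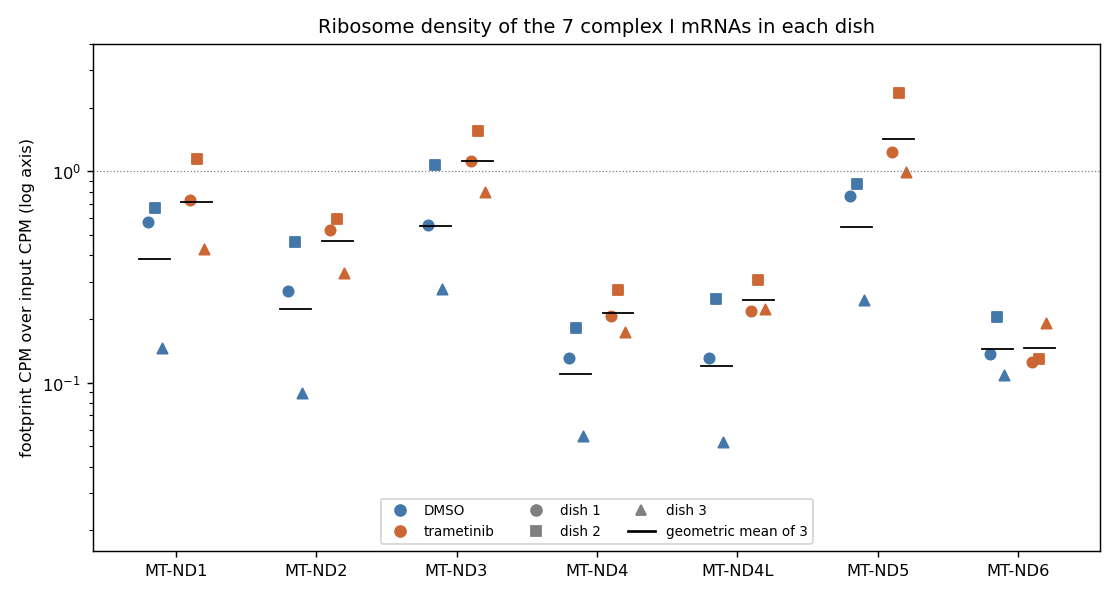
Footprint CPM over input CPM (log axis) of each complex I mRNA in the 3 DMSO dishes (blue) and the 3 trametinib dishes (orange), with a symbol shape per dish number and a black bar at the geometric mean. DMSO dish 3 (blue triangle) is lowest for each member, MT-ND5 is the only member whose treatments do not overlap, and MT-ND4, MT-ND4L and MT-ND6 have the lowest values.

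The densities of the members spanned a wide range. In DMSO, 6 of the 7 had significantly fewer footprints for their input than the typical gene, where 28.0% of the 12000 genes tested were lower and 57.1% differed in either direction. Here 0 on the log2 scale is the TMM reference, that is, the ratio of a typical gene. Whether footprints of mitochondrial ribosomes were recovered as well as cytosolic ones was not tested, so a low density need not mean low translation. Of the 6 other mitochondrially encoded mRNAs 5 were lower as well, and the median over these 6 was -1.61. MT-ND4 was the lowest, at -3.09 ± 0.28 (SE; adjusted p = 4.2e-07), percentile 0.642 of all genes. MT-ND4L followed at -2.87 ± 0.35 (adjusted p = 7.9e-06) and MT-ND6 at -2.70 ± 0.28 (adjusted p = 1.4e-06), all in edgeR. MT-ND2 stood at -2.05 ± 0.32 and MT-ND1 at -1.24 ± 0.35, with adjusted p-values of 7.7e-05 and 0.00693 in edgeR. MT-ND3 (-0.75 ± 0.30) and MT-ND5 (-0.74 ± 0.34) lay close to the threshold on either side, with adjusted p-values of 0.0459 and 0.0747 in edgeR. MT-ND3 lost its call without any one of 5 of the 12 libraries, DMSO input replicate 1, DMSO input replicate 3, DMSO footprint replicate 1, DMSO footprint replicate 3 or trametinib input replicate 1, with adjusted p-values from 0.0549 to 0.14, and MT-ND5 gained one without DMSO input replicate 1, DMSO footprint replicate 2 or trametinib input replicate 2. MT-ND5 also passed with library totals in place of TMM (-0.89, adjusted p = 0.0364) and without the filter (-0.71, adjusted p = 0.0417, both edgeR), which made 7 of 7. Without DMSO footprint replicate 3 the value of MT-ND3 was -0.48 and that of MT-ND5 was -0.44.

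In trametinib 4 of the 7 were lower than the typical gene, against 28.3% of all genes tested. Of the 6 other mitochondrially encoded mRNAs 4 were lower and 1 was higher, with a median of -1.105. MT-ND6 stood at -2.76 ± 0.28 (SE), MT-ND4 at -2.25 ± 0.27, MT-ND4L at -2.05 ± 0.34 and MT-ND2 at -1.13 ± 0.32. MT-ND1 (-0.53 ± 0.34), MT-ND3 (0.09 ± 0.30) and MT-ND5 (0.41 ± 0.34) did not differ significantly from 0.

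Since scaling cancels when members are set against each other within a dish, the order is given that way too. The density of MT-ND5 exceeded that of MT-ND4 in 6 of 6 dishes, by 5.83, 4.81 and 4.43 times with DMSO and by 5.93, 8.55 and 5.68 times with trametinib. MT-ND5 was above MT-ND1, and MT-ND1 above MT-ND2, in 6 of 6 dishes. The other neighbours in the DMSO order did not differ beyond their spread in the DMSO dishes, namely MT-ND3 and MT-ND5, MT-ND2 and MT-ND6, MT-ND6 and MT-ND4L, and MT-ND4L and MT-ND4. In the trametinib dishes each of these pairs had one order in 3 of 3 dishes. MT-ND5 was above MT-ND3 (log2 difference of MT-ND3 over MT-ND5 -0.34 ± 0.23, SD), MT-ND2 above MT-ND6 (1.69 ± 0.78), MT-ND4L above MT-ND6 (MT-ND6 over MT-ND4L -0.76 ± 0.50) and MT-ND4L above MT-ND4 (0.20 ± 0.15).

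MT-ND4L and MT-ND4, which are read from one mRNA, kept nearly the same proportion in input and in footprints. Per length, MT-ND4L had between 0.409 and 0.517 times the counts of MT-ND4 in the 6 input libraries and between 0.384 and 0.585 times in the 6 footprint libraries. The log2 count ratio was -3.41 ± 0.13 (SD, n = 3) in DMSO input and -3.37 ± 0.18 in trametinib input, a difference of 0.04 with p = 0.6 in a two-sided exact permutation test, for which 0.1 is the smallest p possible with 3 against 3. In footprints it was -3.28 ± 0.30 and -3.17 ± 0.09, a difference of 0.11 (exact permutation p = 0.7).

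MT-ND6, the one member on the minus strand, was set against the geometric mean of the other 6. In input this ratio was 0.920, 1.39 and 0.873 in DMSO and 1.39, 2.55 and 1.17 with trametinib. Its log2 mean was 0.05 ± 0.37 (SD, n = 3) and 0.68 ± 0.59, a difference of 0.63 (exact permutation p = 0.2, two-sided), which was 0.30 without trametinib input replicate 2. In footprints the ratio was 0.388, 0.584 and 0.806 in DMSO and 0.324, 0.430 and 0.551 with trametinib, a log2 difference of -0.42 (exact permutation p = 0.4), which was -0.16 without DMSO footprint replicate 3 and -0.69 without DMSO footprint replicate 1. Both measures overlapped between the treatments.

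Taken as density, MT-ND6 relative to the other 6 stood at log2 values of -1.24, -1.25 and -0.12 in the DMSO dishes and -2.10, -2.57 and -1.08 in the trametinib dishes. The difference of -1.05 had an exact permutation p of 0.3, so that a different density response of MT-ND6 was not shown with 3 dishes against 3, and it was -0.67 without DMSO dish 3. Between dishes of the same replicate number the differences were -0.86, -1.32 and -0.97. Between same-numbered libraries they were -0.26, -0.44 and -0.55 in footprints and 0.60, 0.88 and 0.42 in input, so that all 3 pairs had one sign in each measure. With the numbers as pairs the exact permutation p was 0.25 in each, the smallest that 3 pairs allow. Correlations of same-numbered libraries over 7669 genes cannot decide whether the numbers are pairs. Input and footprints of one lysate reached only 0.142, 0.080 and -0.125 by that measure in trametinib. The ratio of densities and the pairing were added after the values had been seen.

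**Figure D5:**
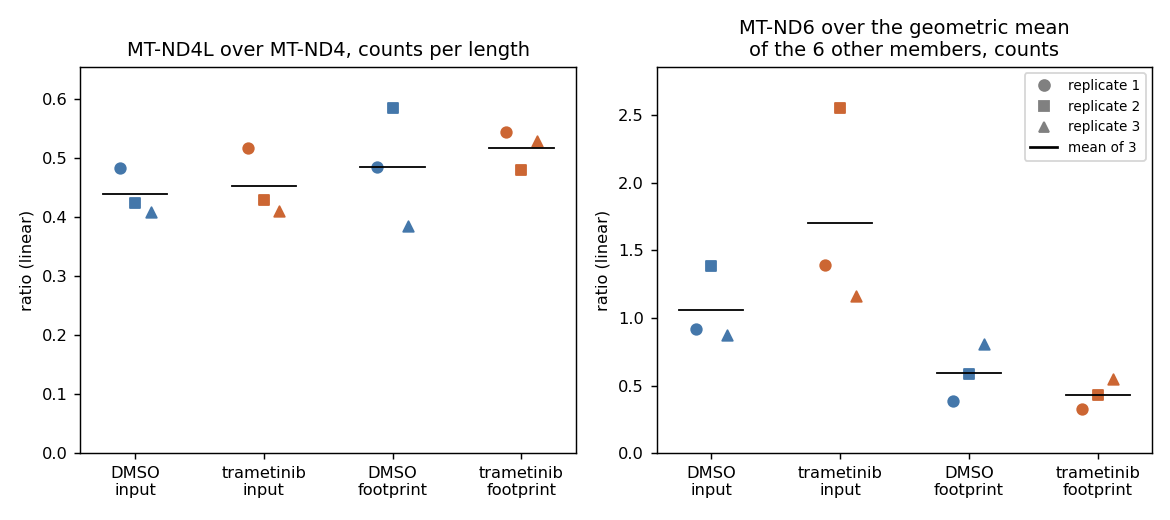
Left, counts per length of MT-ND4L over MT-ND4, and right, counts of MT-ND6 over the geometric mean of the 6 other members, both on linear axes from 0, in each library with a symbol shape per replicate number and a black bar at the mean of 3. The MT-ND4L ratio stays between 0.384 and 0.585 in all 12 libraries, whereas the MT-ND6 ratio ranges from 0.324 to 2.55 and the treatments overlap in each assay.

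Relative to the mean of the 6 plus-strand members within a library, the footprints of single plus-strand members differed between the treatments by -0.12 to 0.13 on the log2 scale. MT-ND5 was 2.08 ± 0.04 log2 units above that mean in DMSO footprints (SD, n = 3) and 2.17 ± 0.0046 above it in trametinib footprints. MT-ND2 was 0.20 ± 0.02 and 0.13 ± 0.03 above it. The differences of 0.09 and -0.08 are given as a description.

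Of the 8426 genes outside the list with at least 100 counts per library on average, the 5 whose profile over the 12 libraries was closest to the mean profile of the members were MT-ATP6, MT-CO2, MT-CO3, MT-CO1 and MT-CYB. Their root-mean-square distances on the log2 scale were 0.0828, 0.111, 0.165, 0.324 and 0.345, while the members themselves were between 0.134 (MT-ND2) and 0.728 (MT-ND5) from their own mean profile. The profiles share libraries and include the difference between input and footprints.

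The nuclear genes that supply and build the rest of complex I are read against the shares of all genes that passed in either direction, 32.1% in input and 48.6% in footprints. Of the core subunits, which carry the flavin and the iron-sulfur clusters in the matrix arm, 1 of 6 tested fell in input (16.7%) and 3 of 6 in footprints (50.0%), and none rose, counts too small to set apart from those shares. NDUFS7, which holds the last iron-sulfur cluster before quinone, fell by 0.77 in input and by 1.14 in footprints on the log2 scale (adjusted p = 0.0237 and 0.000289, edgeR), and NDUFS8 fell by 0.37 in footprints. Of the accessory subunits 5 of 28 fell in input (17.9%) and 7 of 29 in footprints (24.1%) and none rose, both below the shares of all genes, with the largest falls in input for NDUFC1 (-0.78) and NDUFA6 (-0.73) and in footprints for NDUFS6 (-0.56) and NDUFAB1 (-0.55), the acyl carrier protein. The list medians were -0.27 and -0.12 in input for core and accessory subunits, and -0.31 and -0.22 in footprints.

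Of 17 assembly factors, 5 fell and 0 rose in input, and 8 fell and 1 rose in footprints, so that 29.4% and 52.9% passed, near the 32.1% and 48.6% of all genes. NDUFAF4 and FOXRED1, both needed to assemble complex I, fell most, with log2 changes of -1.33 and -1.30 in input and -1.43 and -1.35 in footprints. NDUFAF7, a methyltransferase that acts on a core subunit, rose by 0.54 in footprints.

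In the lists for mitochondrial transcription, DNA maintenance and RNA handling, more genes fell than rose. The balance of falls and rises over all genes is not given here. Of 13 genes of mitochondrial transcription and DNA maintenance 8 fell and 1 rose in input and in footprints alike (69.2% passed, beside 32.1% and 48.6% of all genes). TWNK, POLG, POLG2 and SSBP1 of this list serve mitochondrial DNA. Among the falls in input were those of TWNK, POLG2, SSBP1 and TFB1M. POLRMT, the mitochondrial RNA polymerase, fell by 0.77 in input and by 0.81 in footprints, TFB1M, an rRNA methyltransferase, fell by 0.73 in input, TWNK, the DNA helicase, fell by 0.81 in footprints, and MTERF1 rose by 0.69 and 0.52. Of 17 tested genes of RNA processing and stability 8 fell and none rose in input (47.1%), and 12 fell and 1 rose in footprints (76.5%). PNPT1, polynucleotide phosphorylase, fell by 1.45 in input and also in footprints, FASTKD3 fell by 1.01 in input and PDE12, a deadenylase, fell by 0.98 in footprints. FASTK, of which a mitochondrial form is known to be needed for the MT-ND6 mRNA, rose by 0.54 in footprints.

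Of 14 tested translation and insertion factors of the organelle 3 fell in input (21.4%, below the 32.1% of all genes) and 10 in footprints (71.4%, beside 48.6%), and none rose. The elongation factor GFM1 fell by 0.77 in input and 0.84 in footprints, TSFM fell by 0.95 in footprints and the peptidyl-tRNA hydrolase MRPL58 fell by 0.78 in input. Median log2 changes in input and in footprints were -0.27 and -0.11 for assembly factors. They were -0.53 and -0.52 for the list of transcription and DNA maintenance. For RNA processing and stability they were -0.49 and -0.48, and for translation and insertion -0.24 and -0.39. All genes tested had a median of 0.00 in each assay.

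Ribosome density did not change significantly with trametinib in any tested gene of these nuclear lists, where 0.800% of all genes tested passed. At baseline the nuclear subunits lay on the other side of the typical gene from the mitochondrial ones. This contrast sets mRNAs of different ribosomes against each other, and the recovery of their footprints was not compared. In DMSO, 26 of 29 accessory subunits had a higher density, as did 29.0% of all genes tested, and 1 a lower one, with a median of 1.40 on the log2 scale. Of the core subunits 4 of 6 were higher with a median of 0.77, whereas 6 of the 7 mitochondrially encoded members were lower with a median of -2.05. The low density was not particular to the members, since 5 of the 6 other mitochondrially encoded mRNAs were lower too, with a median of -1.61.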

How the data were processed

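Ribo-seq libraries of HCT116 cells, 3 input and 3 footprint libraries per treatment, were analysed. The authors removed adapters, discarded reads matching rRNA or tRNA with Bowtie 1.2.2, mapped the rest to Gencode basic transcripts and counted short reads within annotated reading frames per gene symbol, keeping those assigned to one symbol. The deposited table holds the authors' raw counts and normalised counts (unit signal: the count divided by a size factor per library, which held in 12 of 12 libraries, unused here). It also holds log2 fold changes and adjusted p-values of their DESeq2 1.46.0 comparisons, which were not used. Of its value columns per library 0 were left unassigned.

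Counts were tested with edgeR 4.0.16 in R 4.3.3 (glmQLFit and glmQLFTest, TMM, genes with 10 counts or more in 3 or more of the fitted libraries, Benjamini-Hochberg adjustment over all genes tested, threshold 0.05) in the 6 libraries of an assay, or in all 12 for ribosome density. SEs were derived from the F statistic and intervals are 95%. Ratios within libraries were compared by two-sided exact permutation tests. Each fit was tested on simulated counts. The members and lists were chosen with earlier results of these data known. All members and the 6 other mitochondrially encoded mRNAs were named, with the 5 genes of the most similar profile and, per nuclear list and comparison, up to 2 genes with the largest significant rise and 2 with the largest fall. Treatment and cell checks were named besides.

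Between same-numbered libraries of the treatments, deviations from group means over 7669 genes had correlations of 0.117, 0.133 and 0.294 in footprints. In input they were 0.068, 0.0484 and 0.336. Input and footprints of one dish come from one lysate per the study's methods. Their correlations were 0.816, 0.181 and 0.343 in DMSO and 0.142, 0.080 and -0.125 in trametinib. Since libraries of one lysate had values as low, the correlations do not decide whether the numbers are pairs. Alternatives were DESeq2 1.42.0, limma 3.58.1, other scalings, no filter, a joint fit, blocks and leaving out each library. Sequences and positions are from GRCh38 with a Gencode annotation later than that of the authors.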

Additional observations from a re-analysis of the deposited data

How the results depend on the processing

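None of the members passed the threshold for ribosome density change under any of the alternatives tried, and none for footprint change except without DMSO footprint replicate 2. In input, 2 members (MT-ND2 and MT-ND5) passed without the filter and 5 (MT-ND1 to MT-ND5) with a replicate block by number, adjusted p from 0.00119 to 0.0314 in edgeR. Same-numbered input libraries had correlations of 0.068, 0.0484 and 0.336 across treatments, so whether the block holds true pairs was not settled. Leaving out one library gave 0 to 3 members in input, 0 to 2 in footprints and 5 to 7 at baseline density, where all 7 passed also with library totals or without the filter, in place of 6. Over all genes, the input calls were 3428 with all libraries and 2199 (without trametinib input replicate 2) to 3562 (without DMSO input replicate 1) with one left out, and density calls were 185 with the DESeq2 likelihood ratio test and 160 with the replicate block by dish, against 96. The replicate block changed no other call of a member. The density change of MT-ND6, which had no call, turned above 0 with limma-trend (0.0124), library totals (0.0786), totals without the 13 mitochondrially encoded genes (0.0947) and the dish block (0.0116), and ranged from -0.25 to 0.43 with a library left out. Leave-one-out ranges of log2 footprint change were -0.10 to 0.66 for MT-ND1, -0.0246 to 0.715 for MT-ND2 and -0.17 to 0.51 for MT-ND6, of the MT-ND4L to MT-ND4 ratio -0.0618 to 0.111 in input and -0.0422 to 0.260 in footprints, and of the MT-ND6 ratio to the other members 0.30 to 0.86 in input, -0.69 to -0.16 in footprints and -1.47 to -0.67 in density. The cause of these changes was not tested. Precision was limited by the spread between 3 replicates.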
